A study of Arabidopsis thaliana with 18 samples.

Results

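The response of aff1-1 seedlings to auxin was followed in 6 of the 18 libraries of the series, the 3 mock-treated and the 3 IAA-treated aff1-1 samples, chosen by their labels alone. The aff1-1 line of Arabidopsis thaliana came from chemical (EMS) mutagenesis and carries a missense change in AFF1 (AT3G49150) that replaces the proline at residue 93 with leucine. The mutagenized parent carried a mutation of ARF19 and a transgene for YFP-ARF19. The mutant was backcrossed to Col-0 before use and is a single mutant line. Any other EMS change, or any part of the parent's ARF19 changes, that remained would be part of the genotype. Whole seedlings, 4 d old, spent 2 h in liquid medium that held ethanol (mock) or 10 μM IAA (indole-3-acetic acid, the main natural auxin). The sample titles give this dose, and 1 protocol label gives it in mM. The other 12 libraries are Wt (Col-0) and the insertion line called aff1-3, under the same 2 treatments with 3 samples in each of the 6 groups. The labels write aff1-2 for the insertion line and give the seed stock number that the study uses for aff1-3. The study describes 3 repeated treatments of each line, and the labels do not say whether the seedlings came from separate cultures, so p-values measure the spread between these samples only, which may be technical. Whole seedlings were used, so fewer cells of a type and less RNA per cell cannot be told apart in any value below.

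Auxin acts by bringing Aux/IAA repressor proteins to the TIR1/AFB F-box receptors, which leads to their degradation and frees the ARF transcription factors that they hold. ARF proteins bind the auxin response element, TGTCTC or the closely related TGTCGG, and switch on early genes such as the Aux/IAA genes themselves, the GH3 enzymes that conjugate auxin to amino acids, and the SAUR growth regulators. AFF1 is an F-box protein of another SCF ubiquitin ligase, which acts on ARF19 and ARF7, a pair of activating ARFs with a large part in lateral root formation. The comparison of IAA with mock in aff1-1 asks which genes the point mutant still switches on or off in the first 2 h.

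Counts per gene summed to between 15653742 and 31094403 over the 6 aff1-1 libraries, and CPM below means counts scaled to a fixed library total after TMM normalization. CPM is not per length, so it is compared between samples and not between genes. Samples of 1 group had rank correlations between 0.988 and 0.993. Root markers summed to between 2740 and 3044 CPM and shoot markers to between 81573 and 94737 CPM in all 6, so both organs were in every sample. Plastid genes took 2.17% to 2.33% of the mock counts and 1.58% to 2.15% of the IAA counts. The 8 stored seed transcripts summed to between 10.1 and 27.5 CPM in mock and to between 21.2 and 238 CPM after IAA, the highest value being that of IAA replicate 1. None of these 8 passed the test, and their part in the results was not tested. AFF1 had 1, 2 and 1 counts in mock and 3, 0 and 0 counts after IAA, too few to check the genotype, and a count per gene does not show a point mutation. TUB4 and ACT7, a tubulin and an actin gene, differed between treatments by 0.13 and 0.23 on the log2 scale and did not pass the test.

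In aff1-1, 612 of 19383 genes tested rose after IAA (3.16%) and 332 fell (1.71%), 944 in both directions (4.87%), at an adjusted p below 0.01 by the quasi-likelihood test of edgeR (adjusted after Benjamini and Hochberg). All 3 IAA samples were above all 3 mock samples for 611 of the 612, and below them for all 332 that fell. The same separation was found for 12.8% and 10.9% of all genes tested. The 1 exception was AT3G46420, with 1, 0 and 0 counts in mock and 0, 64 and 98 counts after IAA. Where groups of a called gene are said below not to overlap, this follows from the call and adds no further support. Most changes were small: 335 of the rises and 196 of the falls were under 2-fold. Rises reached further, with 37 over 8-fold against 7 falls of that size. The genes that rose held 19762 CPM in mock and 37014 CPM after IAA, while those that fell went from 14154 to 8892 CPM. The median log2 fold change of all genes tested was near 0 (-0.0018 with TMM scaling and -0.01 with DESeq2's size factors), and every list below kept the sign of its median under both. Without IAA replicate 1, the sample with the most stored seed RNA, 535 genes rose and 291 fell. Without IAA replicate 3 the counts were 455 and 208.

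The Aux/IAA repressor genes rose almost as a family. Of 26 tested, 21 rose and 1 fell, with a median log2 fold change of 1.25, where 4.87% of all genes tested changed. IAA19 (AT3G15540) had 17.4, 13.4 and 12.7 CPM in the mock samples and 186, 205 and 197 CPM in the IAA samples. Every IAA sample was more than 10 times its mock counterparts, and the rise was 13.5-fold (log2 fold change 3.75 ± 0.12 SE, n = 3, adjusted p = 2.47e-15 in edgeR's test). IAA29 (AT4G32280) had 3.28, 3.9 and 1.76 CPM in mock and 62.8, 68.1 and 63.3 CPM after IAA, the largest rise of the family at 22.5-fold (4.49 ± 0.17). For IAA5 (AT1G15580) the mock samples held 4.99, 3.26 and 2.63 CPM and the IAA samples 53.2, 67.9 and 57.1 CPM, a 16.3-fold rise (4.03 ± 0.19). Each of these genes showed a gap between the groups far wider than the spread within either. IAA5 overlaps AT1G15570, and since the strand setting of the counting was not given, reads of overlapping genes cannot be told apart. IAA30 rose 10.3-fold, and IAA6, IAA1, IAA20 and IAA32 rose by log2 2.62, 2.47, 2.41 and 2.17. At the other end IAA12, IAA16, IAA18 and IAA17 rose by log2 0.39 to 0.47. IAA28, a repressor known for restraining lateral root formation, was the one member that went down: its mock values of 75.9, 84.0 and 80.6 CPM were all above the IAA values of 50.4, 45.2 and 49.6 CPM (-0.73 ± 0.08, adjusted p = 6.45e-07). The median of the family was 1.23 in Wt and 1.22 in aff1-3, beside 1.25 in aff1-1.

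The promoters of these genes were read from the TAIR10 genome as 300 bases, 250 before and 50 after the annotated start of the gene. IAA19, IAA5 and GH3.3 are shown because they carry the auxin response element that the ARF proteins bind, and LBD29 because its gene rose strongly and the window held no such match. Lines run 5′ to 3′ on the strand of the gene, and capitals mark TGTCTC or TGTCGG, or their reverse complements.
IAA19, chr3:5263751-5264050, plus strand: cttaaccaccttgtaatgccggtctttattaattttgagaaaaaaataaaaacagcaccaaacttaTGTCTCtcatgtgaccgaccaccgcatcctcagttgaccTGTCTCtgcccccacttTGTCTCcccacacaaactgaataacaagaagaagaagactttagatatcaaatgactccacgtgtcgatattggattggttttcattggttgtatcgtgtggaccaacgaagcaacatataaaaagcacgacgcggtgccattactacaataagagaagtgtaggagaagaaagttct
IAA5, chr1:5366448-5366747, minus strand: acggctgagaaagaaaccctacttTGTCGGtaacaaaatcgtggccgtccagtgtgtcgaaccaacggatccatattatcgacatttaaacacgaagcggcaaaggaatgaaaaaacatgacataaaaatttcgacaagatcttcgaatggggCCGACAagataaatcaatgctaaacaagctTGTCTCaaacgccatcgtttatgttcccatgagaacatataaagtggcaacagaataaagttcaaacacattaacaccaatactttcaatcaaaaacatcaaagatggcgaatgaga
GH3.3, chr2:9866513-9866812, minus strand: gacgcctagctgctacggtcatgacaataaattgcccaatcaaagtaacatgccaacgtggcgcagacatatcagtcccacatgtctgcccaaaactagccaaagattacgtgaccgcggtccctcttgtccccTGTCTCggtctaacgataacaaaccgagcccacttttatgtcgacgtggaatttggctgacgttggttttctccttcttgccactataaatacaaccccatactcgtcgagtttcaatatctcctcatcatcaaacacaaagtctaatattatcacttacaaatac
LBD29, chr3:21549523-21549822, minus strand: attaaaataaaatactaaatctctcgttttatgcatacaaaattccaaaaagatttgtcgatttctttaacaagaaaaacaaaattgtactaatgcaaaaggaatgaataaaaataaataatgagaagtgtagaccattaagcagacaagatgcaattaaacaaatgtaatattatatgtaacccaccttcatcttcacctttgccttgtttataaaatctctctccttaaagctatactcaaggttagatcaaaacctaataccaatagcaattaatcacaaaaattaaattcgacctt
The IAA19 window held 3 copies of TGTCTC, at -184, -145 and -128 from the start. The IAA5 window held 1 TGTCTC and 2 TGTCGG matches, at -226, -97 and -67, and that of GH3.3 held 1 TGTCTC at -116. Neither motif was found in the windows of LBD29 and IAA29, although both genes rose over 20-fold, which says only that these letters are not in those windows. Over the whole response, 131 of 612 promoters of genes that rose (21.4%), 59 of 332 of genes that fell (17.8%) and 3576 of 19271 of all genes tested (18.6%) held either motif. The share was 14 of 26 for the Aux/IAA genes (53.8%), 12 of 59 for the SAUR genes (20.3%) and 25 of 77 for genes that rose over 4-fold (32.5%). The 4-letter core TGTC was in 83.2% of promoters of genes that rose and in 81.6% of all, so it did not separate them.

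Genes of enzymes that take auxin out of use were among those that rose, and 2 auxin synthesis genes fell. The list was drawn up from GH3 and other auxin-inactivating enzymes, but also from hydrolases that release IAA from its conjugates. Of its 15 genes tested, 7 rose and none fell, where 3.16% of all genes tested rose and 1.71% fell. GH3.3 (AT2G23170) had 35.0, 21.8 and 22.6 CPM in mock and 863, 870 and 901 CPM after IAA, a 33.1-fold rise (5.05 ± 0.19, adjusted p = 3.72e-14). GH3.5 (AT4G27260) and GH3.1 (AT2G14960), which also join auxin to amino acids, rose 9.44-fold and 15.7-fold. GH3.2 (AT4G37390) held 48.9, 20.3 and 20.8 CPM in mock against 513, 463 and 487 CPM after IAA, a 16.2-fold rise with mock replicate 1 the highest of its group. GH3.6 and IAMT1, the latter a methyltransferase that makes the methyl ester of IAA, rose by log2 2.1 and 1.93, and GH3.17 by 0.65. Auxin synthesis went the other way. YUC6 and YUC8, flavin monooxygenases of the last step of IAA synthesis, were the only ones of 8 synthesis genes to pass the test. YUC6 had 3.63, 5.11 and 3.21 CPM in mock and 1.79, 1.25 and 0.937 CPM after IAA (-1.56 ± 0.26, adjusted p = 0.000249). YUC8 had 7.04, 7.99 and 6.03 CPM in mock and 4.24, 3.14 and 3.82 CPM after IAA (-0.89 ± 0.16, adjusted p = 0.000554). In both genes every IAA sample was below every mock sample.

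Genes for receptors and transcription factors upstream passed the test in numbers near the 4.87% of all genes tested that changed. None of 13 genes for auxin receptors, their SCF subunits and associated factors did, with a median log2 fold change of 0.02. Of 15 ARF genes only ARF16 passed the test, rising by 0.54, and that call was lost without any 1 of the 6 samples (adjusted p between 0.0115 and 0.0389). In Wt 5 of the 15 rose and in aff1-3 2, where 4.92% and 2.98% of all genes rose. For 5 of the 15 all IAA samples were above all mock samples, and for 0 below. Over all genes tested 12.8% were above in this way. ARF7 had 31.4, 18.6 and 24.2 CPM in mock and 23.9, 22.5 and 21.0 CPM after IAA, overlapping groups with a difference of -0.15 (adjusted p = 0.77). ARF19, the other ARF on which AFF1 acts, had 15.1, 11 and 10.9 CPM in mock and 20.5, 20.4 and 21.2 CPM after IAA. The IAA samples of ARF19 were all above the mock samples, and its difference of 0.74 ± 0.18 missed the threshold narrowly (adjusted p = 0.0109) while passing it in limma (adjusted p = 0.000568) and DESeq2 (adjusted p = 0.0018). In Wt ARF19 rose by 1.83 (adjusted p = 1.96e-07 in edgeR's test). Its difference of responses, aff1-1 minus Wt, was -1.09 and missed the threshold (adjusted p = 0.0741). ARF19 overlaps AT1G19210 on the same strand.

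**Figure D1:**
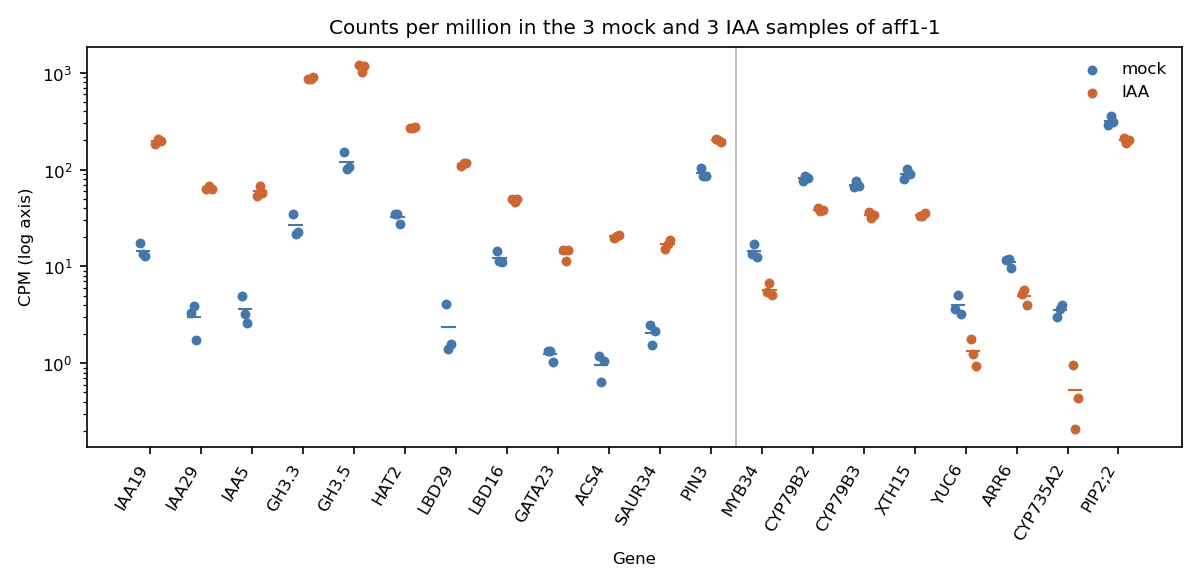
CPM (log axis) of named genes in the 3 mock and 3 IAA samples of aff1-1. Each point is 1 sample and each short line a group mean. To the left of the grey line are genes that rose and to the right genes that fell; mock and IAA samples do not overlap for any gene shown, and GH3.3 goes from between 21.8 and 35.0 CPM to between 863 and 901 CPM.

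SAUR genes encode small proteins that promote cell expansion, and many lie in tandem clusters of near-identical copies. Of 59 tested, 22 rose and 2 fell, where 3.16% of all genes tested rose and 1.71% fell. Their median log2 fold change was 0.43. SAUR34 (AT4G22620) had 2.49, 1.53 and 2.14 CPM in mock and 15.3, 17.1 and 18.9 CPM after IAA, an 8.17-fold rise (3.03 ± 0.18). SAUR10 rose 10.9-fold, from 0.437, 0.639 and 0.420 CPM to 5.63, 5.18 and 5.16 CPM. SAUR37, with 4.77, 8.75 and 6.41 CPM in mock and 1.5, 1.52 and 2.04 CPM after IAA, and SAUR69 were the members that fell (-1.95 ± 0.28 and -1.28). In all 4 of these the IAA and mock samples did not overlap. The rises were mostly in clusters: of 25 tested genes in the 5 groups of neighbouring SAUR genes (gaps of up to 20000 bases, at least 3 genes), 17 rose and 0 fell, against 5 higher and 2 lower of 34 outside them. On chromosome 1, between 10301377 and 10323239 (TAIR10), 7 of 8 tested genes from SAUR61 to AT1G29510 rose, by log2 0.83 to 2.88. On chromosome 3, between 976715 and 983768, all 4 genes from SAUR29 to SAUR26 rose, by log2 1.76 to 1.99. On chromosome 5, between 5962773 and 5984308, the 6 genes from SAUR19 to SAUR24 had log2 differences between 1.45 and 2.74, of which 3 passed the test.

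In these 3 clusters 17 of the 18 tested genes had a larger log2 fold change in aff1-1 than in Wt, and all 18 rose in aff1-3, 14 in aff1-1 and 11 in Wt, where 2.98%, 3.16% and 4.92% of all genes rose. The medians in aff1-1, Wt and aff1-3 were 1.49, 0.93 and 2.58 for the cluster on chromosome 1, 1.89, 0.98 and 2.36 for that on chromosome 3, and 1.79, 1.60 and 2.84 for that on chromosome 5. These 3 were picked from the 5 clusters with their values known. Those left out lie on chromosome 4, with aff1-1 and Wt medians of 0.57 and 0.59 (SAUR49 to SAUR5) and 0.25 and 0.22 (SAUR14 to SAUR16). There 3 of 4 and 2 of 3 genes had a larger log2 fold change in aff1-1. Over all 59 SAUR genes, 24 had a smaller absolute log2 fold change in aff1-1 than in Wt. The difference of responses between aff1-1 and Wt passed the threshold for no SAUR gene, the lowest adjusted p in the 3 clusters being 0.0814, for SAUR29. SAUR29 (AT3G03820) had 3.41, 3.07 and 2.4 CPM in mock and 9.98, 9.78 and 10.1 CPM after IAA in aff1-1. Its mean in Wt was 6.33 CPM in mock and 10.5 CPM after IAA. Of all genes tested 4.58% differed between aff1-1 and Wt in mock and 6.17% after IAA. The mock level of SAUR29 was lower in aff1-1 than in Wt (log2 difference -1.10, adjusted p = 0.000489) and the IAA level differed by -0.07 (adjusted p = 0.815). SAUR27, from the same cluster, had a mock difference of -1.13 (adjusted p = 0.00089) and an IAA difference of -0.35 (adjusted p = 0.171). SAUR20 on chromosome 5 was lower than in Wt in both treatments, by -1.23 in mock and -0.98 after IAA (adjusted p = 0.00363 and 0.00282). The reads were counted only where they aligned to 1 place, so single values within these clusters of near-identical copies are uncertain.

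**Figure D2:**
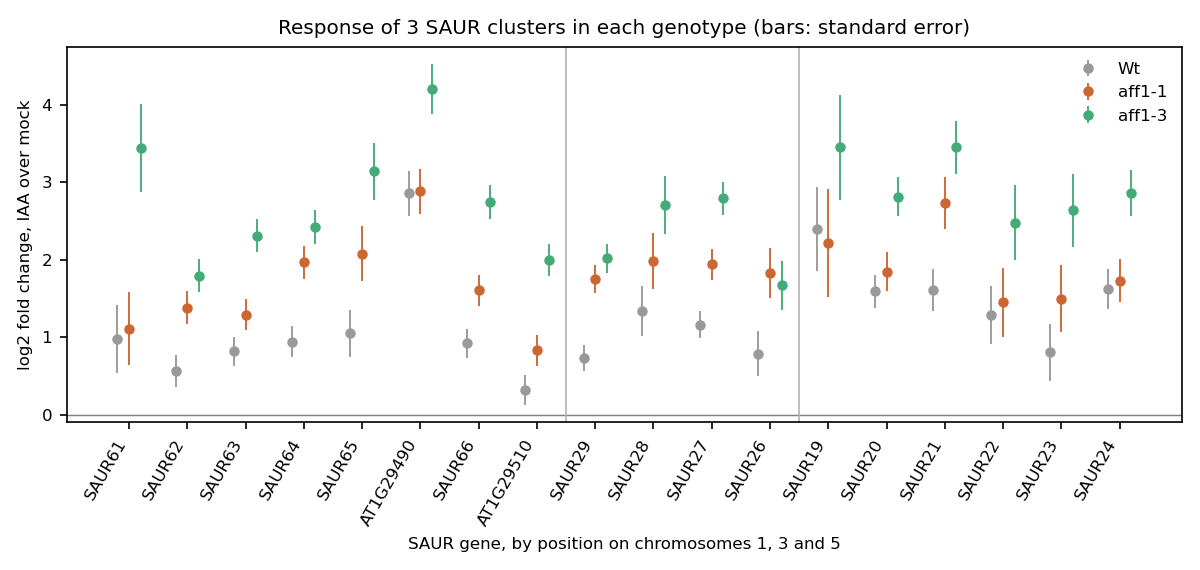
Log2 fold change of IAA over mock for the SAUR genes of 3 clusters on chromosomes 1, 3 and 5, in order of position, in aff1-1, Wt and aff1-3. Points are the fitted values and bars their standard error; aff1-3 is highest for most genes and aff1-1 lies above Wt for 17 of the 18. The 3 clusters were picked from 5 with their values known.

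Genes of lateral root formation included some of the largest single rises. Of 30 tested, 18 rose and 1 fell, where 3.16% of all genes tested rose and 1.71% fell. Their median log2 fold change was 0.94. LBD29 (AT3G58190), a LOB-domain transcription factor that acts downstream of ARF7 and ARF19, had 4.11, 1.41 and 1.56 CPM in mock and 109, 116 and 117 CPM after IAA. This was a 47.2-fold rise (5.56 ± 0.21, adjusted p = 3.53e-14) with mock replicate 1 the highest of the mock group. LBD18, of the same family, had 1.18, 0.767 and 0.916 CPM in mock and 9.65, 10.6 and 13.9 CPM after IAA (11.7-fold). LBD19 had no counts in any mock library and 15, 17 and 30 counts after IAA, at least 5.59-fold higher against a floor of 3 counts per library. LBD16, a further member that drives founder cell division, had 14.4, 11.3 and 11.1 CPM in mock and 49.6, 45.7 and 49.3 CPM after IAA, a smaller rise of 3.92-fold (1.97 ± 0.12). LBD17 and LBD33 rose by log2 3.03 and 3.43. GATA23, a GATA factor that marks founder cells, had 1.36, 1.34 and 1.03 CPM in mock and 14.9, 11.5 and 14.8 CPM after IAA (3.48 ± 0.22). MAKR4, a membrane-associated protein that acts in the spacing of lateral roots, had 7.43, 5.81 and 4.50 CPM in mock and 84.0, 76.5 and 82.3 CPM after IAA (3.78 ± 0.13). PUCHI, an AP2-type factor of the young primordium, had 5.12, 5.69 and 5.27 CPM in mock and 17.2, 18.1 and 19.0 CPM after IAA (3.39-fold). None of these genes had an IAA sample within the range of its mock samples. CRF3, WOX11 and TMO5 rose by log2 1.83, 1.21 and 1.24. Markers of stem cells and primordia (PLT1, PLT2, WOX5 and STM) summed to between 8.61 and 9.58 CPM in mock and to between 8.92 and 10.9 CPM after IAA, and none of the 4 passed the test.

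Cell division genes were looked at as well. None of 30 genes for entry into the cell cycle and none of 24 mitosis genes passed the test, with medians of 0.04 and -0.22. Over all genes tested 3.16% rose and 1.71% fell, so in lists of this size these counts are near that background. For 8 of the 24 mitosis genes all IAA samples were below all mock samples, and for 0 above. Over all genes tested 10.9% were below in this way. The mitosis median was -0.06 in Wt and 0.01 in aff1-3. Among 26 PLETHORA, WOX and vascular regulators 6 rose and 0 fell, where 3.16% of all genes tested rose and 1.71% fell. The risers included TMO5, a bHLH factor of vascular tissue, and ACL5, the thermospermine synthase that limits xylem formation (log2 1.2).

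HAT2 (AT5G47370), an HD-Zip II factor of shade and auxin responses, was among the 5 rises with the smallest p. It had 35.1, 34.4 and 27.4 CPM in mock and 270, 271 and 275 CPM after IAA, an 8.44-fold rise (3.08 ± 0.09, adjusted p = 1.05e-15). Of 9 HD-Zip II genes tested, 4 rose and 0 fell, the others that rose being HB17 (3.76 ± 0.26), HB18 (2.16) and HAT1 (0.99). Among growth regulators of gravity and shade responses 3 of 16 rose, where 3.16% of all genes did, led by PRE6, a small HLH protein (1.86). The count was 1 without mock replicate 1 and 2 without mock replicate 2 or IAA replicate 2, and was 3 without each of the others.

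Auxin transport genes rose as well, by less. Of 32 tested, 10 rose and 1 fell, where 3.16% of all genes tested rose and 1.71% fell. PIN3, an efflux carrier of the gravity response, had 103, 85.9 and 86.4 CPM in mock and 209, 201 and 194 CPM after IAA (1.13 ± 0.11). PIN7 and PIN4 rose by 0.79 and 0.52, the influx carriers LAX2 and LAX3 by 0.93 and 0.51, and BRX, which tunes PIN activity in the root, by 1.63 ± 0.23. The groups of these genes did not overlap. WAG1, a kinase that acts on PIN proteins, fell by 1.14 on the log2 scale (adjusted p = 0.00353), a call lost when any of 4 samples was left out, with the highest adjusted p, 0.036, without IAA replicate 3.

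Ethylene synthesis was represented by its ACC synthases. ACS4 (AT2G22810), one of the enzymes that make the ethylene precursor ACC, had 1.18, 0.639 and 1.07 CPM in mock and 19.6, 20.4 and 21.3 CPM after IAA, a 20.4-fold rise (4.35 ± 0.19, adjusted p = 3.44e-13). ACS11 had 9.27, 8.31 and 6.11 CPM in mock and 25.6, 40.7 and 34.7 CPM after IAA (2.1 ± 0.17), and ACS8 rose by 1.66 ± 0.21. ACO1, an ACC oxidase of the next step, fell from 39.1, 57.1 and 38.4 CPM to 25.8, 18.0 and 21.5 CPM (-1.03 ± 0.18, adjusted p = 0.000499). Over the list of 29 genes 4 rose and 1 fell, where 3.16% of all genes tested rose and 1.71% fell. The remaining riser was ERF1, an ethylene response factor (1.21).

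Of 34 cytokinin genes tested, 7 fell and 4 rose, where 1.71% of all genes tested fell and 3.16% rose. Of the 7 that fell, 6 were type-A response regulators, which cytokinin induces. ARR6 had 11.6, 12 and 9.62 CPM in mock and 5.15, 5.65 and 4.02 CPM after IAA (-1.17 ± 0.14), and ARR3 fell by 1.73, ARR7 by 0.84, ARR16 by 0.69, ARR8 by 0.64 and ARR4 by 0.60. The other that fell was IPT3, a cytokinin synthesis gene (-0.80). CKX6, a cytokinin oxidase that breaks the hormone down, had 3.67, 3.39 and 2.98 CPM in mock and 11.1, 11.1 and 12.8 CPM after IAA (3.5-fold). CKX1 and CKX5, of the same family, rose by 1.72 and 0.92. LOG3, an activating enzyme, rose by 1.19, a call lost without mock replicate 2 (adjusted p = 0.0104). Outside the list, CYP735A2, the hydroxylase that makes trans-zeatin type cytokinins, was among the 10 largest falls, with 3.02, 3.64 and 4.01 CPM in mock and 0.950, 0.209 and 0.435 CPM after IAA (-2.67 ± 0.40, adjusted p = 6.91e-05). Groups did not overlap for any of these genes.

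Brassinosteroid and gibberellin genes changed in both synthesis and inactivation. BAS1, which inactivates brassinosteroids, had 13.2, 11 and 10.3 CPM in mock and 35.4, 39.2 and 37.0 CPM after IAA (1.69 ± 0.14, 3.22-fold). Of 18 brassinosteroid genes 7 rose and 1 fell, where 3.16% of all genes tested rose and 1.71% fell. BEN1 and CYP72C1 of inactivation rose by 1.00 and 0.85, DWF4 and BR6OX2 of synthesis by 0.64 and 0.53, and the receptor gene BRL3 by 1.11, while ROT3 of synthesis fell by 0.75. Of 8 gibberellin oxidase genes, GA2OX8 and GA2OX6, which inactivate the hormone, rose by 1.09 and 0.94, and GA3OX1, which activates it, fell by 0.75. Of 27 abscisic acid and drought genes 3 rose (1 or 2 without any 1 sample), with NCED5 of abscisic acid synthesis the largest (2.91, from at most 0.511 CPM in mock to between 1.25 and 2.08 CPM). None of 30 jasmonate genes passed the test.

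Genes of the cell wall moved both ways. Expansins loosen walls, and 8 of 25 rose while 3 fell, where 3.16% of all genes tested rose and 1.71% fell. EXPA4 and EXPA8 rose by 1.37 and 1.09. EXPA14, known from lateral root emergence, had 6.47, 9.90 and 5.99 CPM in mock and 2.45, 1.31 and 0.971 CPM after IAA (-2.21 ± 0.30). Of 28 XTH genes, whose enzymes cut and rejoin xyloglucan, 4 rose and 6 fell. XTH19 had 61.3, 63.0 and 52.1 CPM in mock and 151, 184 and 167 CPM after IAA (1.51 ± 0.11). XTH15 went the other way, from 79.1, 102 and 89.7 CPM to 33.0, 33.5 and 36 CPM (-1.40 ± 0.09, adjusted p = 4.17e-10), and XTH21 fell by 3.02 on the log2 scale. All 3 of these XTH genes had groups that did not overlap. Of 26 root hair genes 1 rose and none fell, so 3.85% changed, near the 4.87% of all genes tested.

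Genes of indole glucosinolate synthesis were among those that fell. These are defence compounds made from tryptophan through indole-3-acetaldoxime, which is also a route to auxin. Of 25 tested genes 8 fell and 0 rose, where 1.71% of all genes tested fell. The count was 4 without mock replicate 3, 5 without mock replicate 2, IAA replicate 2 or IAA replicate 3, 6 without IAA replicate 1 and 7 without mock replicate 1. MYB34 (AT5G60890), the factor that drives the pathway, had 13.4, 17.0 and 12.6 CPM in mock and 5.41, 6.74 and 5.05 CPM after IAA (-1.32 ± 0.14, adjusted p = 7.03e-07). CYP79B2, of the first step, had 77, 85.7 and 81.4 CPM in mock and 39.7, 37.1 and 38.6 CPM after IAA (-1.08 ± 0.12). CYP79B3, its close relative, had 65.8, 76.0 and 67.0 CPM in mock and 36.9, 31.8 and 34.3 CPM after IAA (-1.02 ± 0.09, adjusted p = 3.15e-08). CYP83B1, UGT74B1, SOT17 and SOT18 of the later steps fell by 0.47, 0.51, 0.59 and 0.55. In Wt 15 of the 25 fell and in aff1-3 12, where 4.74% and 1.97% of all genes fell, and the difference between the aff1-1 and Wt responses passed the threshold for none of them.

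Of 20 aquaporin genes tested, 5 fell and 0 rose in aff1-1, 11 fell in Wt and 2 fell in aff1-3, where 1.71%, 4.74% and 1.97% of all genes fell. In aff1-1 the count was 3 without mock replicate 2, mock replicate 3, IAA replicate 1 or IAA replicate 2. PIP2B (AT2G37170, also known as PIP2;2), a plasma membrane water channel, had 288, 358 and 313 CPM in mock and 213, 186 and 201 CPM after IAA (-0.68 ± 0.09, adjusted p = 1.17e-05), and PIP1A fell by 0.60 on the log2 scale. TIP2;3 and PIP2;4 (-0.88 and -0.73) also fell, and both calls were lost when any of 4 samples was left out, with adjusted p up to 0.0368 without IAA replicate 2 and 0.0539 without mock replicate 2. TIP2;3 was also the only 1 of 8 root markers past the test. The endodermis markers summed to between 100.9 and 116 CPM in mock and to between 75.9 and 100.5 CPM after IAA, and root hair markers to between 171 and 222 CPM and between 149 and 180 CPM. The part of these cell types in the falls was not tested. Of 20 nitrate genes NRT1.5, which loads nitrate into the xylem, and HRS1, a nitrate and phosphate responsive factor, fell by 1.23 and 0.88, and NRT1.7, a nitrate transporter of the phloem, rose by 0.49, a call lost when any of 4 samples was left out (adjusted p up to 0.0446, without mock replicate 2).

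None of 25 light harvesting genes and none of 12 clock genes passed the test. Of 55 WRKY genes 2 rose, of 48 AP2/ERF genes 4 rose and 1 fell, and of 38 glutathione S-transferase genes 6 rose and 2 fell, where 3.16% of all genes tested rose and 1.71% fell. The 6 glutathione S-transferase rises became 2 without mock replicate 1 or 2, 3 without any 1 IAA sample and 5 without mock replicate 3. Over the 34 lists together 133 of 813 tested genes rose and 45 fell. That left 479 genes that rose and 287 that fell outside any list.

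**Figure D3:**
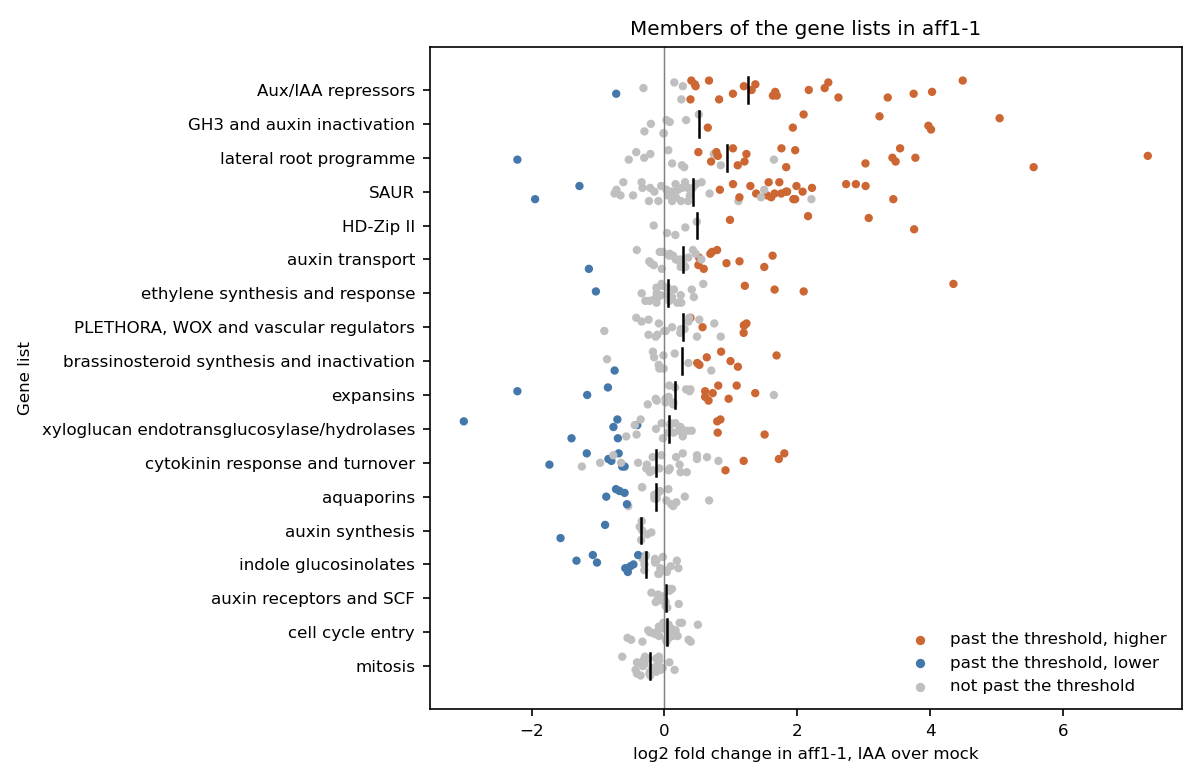
Log2 fold change of IAA over mock in aff1-1 for every tested member of the gene lists. Each point is 1 gene, coloured by whether it passed the test and in which direction; the Aux/IAA list lies almost wholly to the right of 0, with 21 of 26 members higher, while the indole glucosinolate list has 8 of 25 lower and none higher.

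Outside the lists, the largest rises included OFP4, an OVATE family protein (AT1G06920), with 0.7, 0.319 and 0.229 CPM in mock and 12.5, 11.9 and 12.3 CPM after IAA (29.0-fold). AT4G37290 and AT4G11340 rose by 4.76 and 4.85, the latter overlapping AT4G11330 on the other strand. GAD5, a glutamate decarboxylase, had 0, 3 and 0 counts in mock and 25, 20 and 35 counts after IAA. The smallest p of the whole comparison belonged to AT4G17350, with 5.64, 6.26 and 5.8 CPM in mock and 63.8, 64.5 and 65.0 CPM after IAA (3.45 ± 0.09, adjusted p = 5.99e-17), a gene that overlaps AT4G17360 on the other strand. The largest fall was that of AT3G07425, from 19, 25 and 19 counts to 2, 1 and 1 counts. MYB40, a MYB factor, had 3.5, 3.45 and 3.09 CPM in mock and 0.548, 0.366 and 0.469 CPM after IAA (-2.82 ± 0.29). AT3G45680, AT3G05770, AT3G26610 and AT5G03995 fell by 3.4, 3.31, 3.08 and 2.94 on the log2 scale. Falls with the smallest p were those of TPPB, a trehalose phosphate phosphatase, from 13.6, 16.3 and 11.9 CPM to 5.41, 4.50 and 4.82 CPM, of AT3G01260 (-1.72) and of UMAMIT17, of a family of amino acid exporters (-1.86).

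The aff1-1 response was set beside those of Wt and aff1-3, which share no samples with it. In Wt 1873 genes changed (9.66%, with 4.92% higher and 4.74% lower) and in aff1-3 959 (4.95%, with 2.98% higher and 1.97% lower). Of the 612 genes that rose in aff1-1, 516 also rose in Wt, which were 516 of the 954 that rose there, and 456 also rose in aff1-3, of 578 there. Of the 332 that fell, 287 were among the 919 that fell in Wt and 199 among the 381 that fell in aff1-3. Changes were smaller in aff1-1 than in Wt for 376 of the 612 and 227 of the 332, genes chosen on the aff1-1 values. With genes chosen on aff1-3 instead, the 578 that rose had medians of 0.90 in aff1-1 and 1.11 in Wt, and 405 of them rose less in aff1-1. The 381 that fell in aff1-3 had medians of -0.56 in aff1-1 and -0.89 in Wt, with a smaller change in aff1-1 for 312. These counts describe the genes and are not a test.

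**Figure D4:**
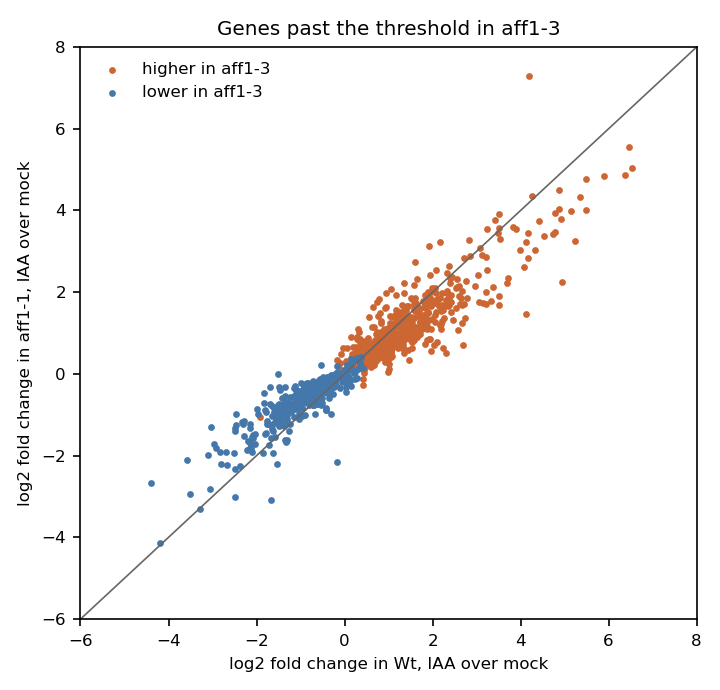
Log2 fold change of IAA over mock in aff1-1 (vertical axis) and Wt (horizontal axis) for the genes past the threshold in aff1-3, whose samples enter neither axis. Each point is 1 gene and the line marks equal values; of the 578 genes higher in aff1-3, 405 lie below the line.

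A difference between the aff1-1 and Wt responses passed the threshold for 14 genes (0.0722% of those tested), 11 of which also changed in aff1-1, and 2358 had an unadjusted p below 0.05. Limma called 48 and DESeq2 94. Without 1 sample the count was between 2 and 16, with 2 left without Wt IAA replicate 1. LBD25, a LOB-domain factor, had 11.6, 15.9 and 15.5 CPM in mock and 5.56, 5.96 and 6.06 CPM after IAA in aff1-1, a fall of 1.29 on the log2 scale, and fell by 3.04 in Wt. The difference was 1.75 ± 0.24 (adjusted p = 0.00197), and the aff1-1 level lay above Wt after IAA (log2 difference 1.94) but not beyond the test in mock (0.19, adjusted p = 0.461). GH3.1 rose by 3.98 in aff1-1 and 5.14 in Wt, with group means of 3.85 and 60.5 CPM in aff1-1 and 3.14 and 112 CPM in Wt. PUCHI rose by 1.76 in aff1-1 and 3.05 in Wt. Its level was higher than in Wt in mock, short of the threshold (0.60, adjusted p = 0.0159), and lower after IAA (-0.69, adjusted p = 0.000906). In other genes the mock levels differed past the threshold. GH3.3 had a mean of 26.5 CPM in mock aff1-1 and 8.17 CPM in mock Wt (log2 difference 1.68, adjusted p = 3.99e-06), and after IAA 878 and 770 CPM (0.19, adjusted p = 0.469). AT5G38200 had 18.3, 11.2 and 20.6 CPM in mock and 52.2, 44.6 and 44.3 CPM after IAA in aff1-1, against means of 3.84 and 67.6 CPM in Wt. ZFP2, a zinc finger protein, rose by 2.26 in aff1-1 and 4.94 in Wt, with mock means of 3.35 and 0.758 CPM. The difference between the responses, and the mock and IAA differences, share their samples and are not independent of each other.

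Against aff1-3 the aff1-1 response differed past the threshold for 0 genes (0%) in edgeR's test, with 1368 at an unadjusted p below 0.05 and a lowest adjusted p of 0.417. Limma called 0 and DESeq2 1. The 5 lowest p belonged to AT5G41740, AT3G13980, MYB122, CPK19 and AT4G30170, with differences of 1.45, 1.01, 1.25, -2.55 and -0.88.

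There were 60 genes that rose and 42 that fell in aff1-1 and were called in neither Wt nor aff1-3. Of these, 97 had the same sign in Wt and 91 in aff1-3, and 0 passed the test of the difference from Wt. For 29 the unadjusted p was above 0.05 in both other genotypes. Among these CPK19, a calcium-dependent kinase, had 1.05, 0.894 and 1.45 CPM in mock and 0.329, 0.418 and 0.268 CPM after IAA (-1.79 ± 0.35, adjusted p = 0.00154). Its log2 fold change was -0.17 in Wt and 0.76 in aff1-3, and the differences had adjusted p of 0.154 and 0.417. AT3G56220 fell by 1.2, and AT3G12710 and AT3G48970 rose by 0.47 and 0.82. All 4 of these calls, and that of AT3G46420, were lost without at least 2 of the 6 samples, with adjusted p of up to 0.0176 for CPK19 without mock replicate 3.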

How the data were processed

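RNA of whole seedlings was sequenced in 18 samples of 6 groups. The authors deposited 1 table of read counts for 28278 gene rows, made with STAR on TAIR10 and featureCounts from uniquely aligned, unambiguous reads. The strand setting was not given in the sources used here. Groups came from the sample labels. The filter kept genes that exceeded 1 CPM in 2 or more samples of any group, without 4 nuclear rRNA genes, which left 19383. All 18 samples were fitted with 6 group means in edgeR 4.0.16 (quasi-likelihood test, TMM scaling, R 4.3.3), p-values were adjusted by Benjamini-Hochberg over all genes tested, and the threshold was 0.01. The standard error was the log2 fold change divided by the square root of F. Replicates were compared within groups, and none agreed within sampling noise. In simulated data for the aff1-1 comparison (19383 genes) the test found 80% of 100 genes changed 2-fold and all of 100 changed 4-fold (100%), with 2 false calls.

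Alternatives were limma 3.58.1, DESeq2 1.42.0 and its size factors, other filters and thresholds, only the genotypes compared, a replicate term, and leaving out each sample. Named genes were the 10 largest rises and 10 largest falls past the threshold (at least 10 mean counts, no overlap), the 5 smallest p in each direction, up to 4 genes a list, genes the study names, the 5 smallest p of each difference of responses, and the 5 smallest p among genes past the threshold in aff1-1 with an unadjusted p above 0.05 in Wt and aff1-3. Further genes were added after their values were seen, among them the remaining members of the Aux/IAA, GH3, SAUR, lateral root, transport, cytokinin and brassinosteroid lists. Gene lists and comparisons were chosen with earlier results of these data known. Gene names came from RefSeq for TAIR10.1, which matched 99% of the gene rows. Some results for single genes are not reported here.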

Additional observations from a re-analysis of the deposited data

Results flagged for a closer look

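For 14 genes the test of the difference between the aff1-1 and Wt responses passed the threshold, in edgeR. Differences below are log2, aff1-1 response minus Wt response. All 14 genes had a smaller change in aff1-1 than in Wt. For 11 genes, which rose in Wt, the difference was negative. These were ZFP2 at -2.68, AT5G38200 at -2.64, UGT74E2 at -1.78, GH3.3 at -1.49, AT2G41380 at -1.36, PUCHI at -1.29, ADC2 at -1.26, GH3.1 at -1.17, MAKR4 at -1.14, AT3G26760 at -0.90 and AT4G17350 at -0.72. The other 3, which fell in Wt, had positive differences, LBD25 at 1.75, AT4G31330 at 1.48 and AT1G78450 at 1.35. They fell by 3.04, 2.46 and 1.82 in Wt, with log2 fold changes of -1.29, -0.98 and -0.47 in aff1-1. UGT74E2, an enzyme that adds glucose to the auxin precursor indole-3-butyric acid, had group means of 14.3 CPM in mock and 20.7 CPM after IAA in aff1-1 and of 2.14 and 10.6 CPM in Wt. ADC2, an arginine decarboxylase of polyamine synthesis, had means of 130 and 153 CPM in aff1-1 and of 65.7 and 186 CPM in Wt. AT1G78450, UGT74E2, AT4G31330, AT3G26760 and ADC2 were added after their values were seen. AT1G78450, UGT74E2 and ADC2 did not pass the test in aff1-1 itself (adjusted p = 0.0476, 0.078 and 0.47).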

How the results depend on the processing

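The counts of genes higher and lower in aff1-1 were 742 and 448 with limma, 723 and 469 with DESeq2, and 596 and 343 with DESeq2's size factors in edgeR. They were 277 and 136 at a log2 change of at least 1, and 887 and 565 at an adjusted p below 0.05. Leaving out 1 of the 6 samples gave 455 to 535 higher and 208 to 291 lower, the lowest of each without IAA replicate 3, where 655 of the 944 genes (69.4%) were called again. Genes of the 34 lists numbered 116 to 121 higher and 35 to 42 lower. The difference from Wt was called for 48 genes with limma, 94 with DESeq2, 37 without a filter on low counts, 30 with only the genotypes compared and 67 at an adjusted p below 0.05, and for 2 to 16 without 1 sample. That from aff1-3 was called for 1 gene with DESeq2 and for 0 to 1 without 1 sample. Genes called in aff1-3 with a log2 change of at least 1 had medians of 1.5 in aff1-1 and 1.77 in Wt when higher, and of -1.13 and -1.52 when lower. The core TGTC was in 83.2%, 81.9% and 81.6% of promoters of genes that rose, fell and were tested. Of 132 genes followed, some of which had no call in aff1-1 to lose, 26 lost their call without at least 1 sample. Not all genes added after their values were seen were followed. Differences that missed the threshold turned sign for AFF1 (-3.67 to 0.036, the latter without IAA replicate 3), ARF7 (-0.31 to 0.062, the latter without mock replicate 1) and AT5G41740 (-0.050 to 0.35, the former without IAA replicate 2). The causes were not tested. Depth limits the fold changes of LBD19 and GAD5, which had 0 to 3 counts in each mock library.

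Replicate numbers are shared by the groups, but nothing in the labels pairs the samples. IAA samples correlated with the mock sample of their own number at 0.12, 0.119 and 0.0922, and at -0.0329 to -0.094 with the others, each best with its own, a hint from the data only. Deviations from group means were correlated, so a positive value for the own number brings negative values for the others. The negative values therefore add nothing to the hint. With the replicate number as a block, 603 genes were higher and 336 lower, 859 of them called in both fits, and the difference from Wt was called for 23.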

Other observations

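Further groups of genes were looked at after their values were seen, and are given as descriptions without a test. Small peptides of the ROTUNDIFOLIA-like family, known for restraining cell proliferation when overexpressed, rose for 8 of 15 tested genes and fell for none (median log2 fold change 1.41), where 4.87% of all genes changed. RTFL19 rose by 3.56, RTFL21 by 2.32, RTFL13 by 2.01 and RTFL10 by 1.86. Genes of signalling peptides were also looked at. RGF8, RGF9 and RGF6 of the root meristem growth factors rose by 3.27, 1.68 and 1.53. Of 17 genes annotated as CLAVATA3/ESR-related (CLE) peptides 3 rose and 1 fell, where 3.16% of all genes tested rose and 1.71% fell. CLE44, known from vascular stem cells, rose by 2.37 and CLE25 by 1.21. CLE2 and CLE4 had log2 fold changes of -1.91 and -1.64, given here as values and not as calls.

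In a transporter family, falls outnumbered rises. Of 37 genes of the nodulin MtN21 (UMAMIT) family, which export amino acids and related compounds, 2 rose and 7 fell, where 1.71% of all genes fell. ABCG14, which carries cytokinin from root to shoot, had 43.0, 34.2 and 39.5 CPM in mock and 19.8, 13.7 and 15.2 CPM after IAA (-1.26). Every IAA sample of ABCG14 was below every mock sample. Pectin lyase-like genes of the cell wall rose for 8 and fell for 4 of 49, and arabinogalactan protein genes rose for 6 and fell for 1 of 28. Over all genes tested 3.16% rose.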
